A study of Mus musculus with 6 samples.

Results

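The galectin genes *Lgals1*, *Lgals2*, *Lgals3*, *Lgals4*, *Lgals6*, *Lgals8* and *Lgals9*, together with *Lgals3bp*, which encodes a secreted glycoprotein that galectins bind, were followed in the embryonic mouse small intestine with and without the transcription factor TCF7L1. The 8 genes were taken by symbol, as a gene family, from the 23366 genes of the count tables, and all 8 were present. The epithelium was isolated at E13.5 by sorting living EpCAM-positive cells, 500 for each library. There were 3 libraries from wild type embryos and 3 from embryos with the genotype *Shh-cre-egfp*:*Tcf7l1 lox/lox*, called mutant here. In the mutants Cre is made from the *Shh* locus, which is active in the gut epithelium, and removes a floxed exon of *Tcf7l1*. The comparison asks how the loss of TCF7L1 changes transcription in this epithelium. No library came from embryos with Cre alone, so the Cre allele and the loss of *Tcf7l1* cannot be told apart. The libraries are described as biological replicates, but nothing states the litter of the embryos or whether embryos were pooled.

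Galectins are small lectins that recognise galactose-containing sugars, above all N-acetyllactosamine (LacNAc) units on glycoproteins and glycolipids. They are made in the cytosol and leave the cell by a route that avoids the endoplasmic reticulum. Outside the cell they cross-link glycoproteins and influence adhesion, the residence of receptors at the surface and apical sorting, and inside it some of them detect sugars exposed on damaged endosomes and lysosomes. Prototype galectins, here *Lgals1* and *Lgals2*, have a single sugar-binding domain. The chimera galectin *Lgals3* joins such a domain to a flexible tail through which it forms oligomers. The tandem-repeat galectins *Lgals4*, *Lgals6*, *Lgals8* and *Lgals9* carry a pair of different domains on a single chain. In the adult gut *Lgals2*, *Lgals3* and *Lgals4* are well-known products of the absorptive epithelium.

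The sugar-binding domains share a signature of 7 residues (His, Asn, Arg, Val, Asn, Trp, Glu) that contact the galactose, and its coding windows are printed here because they show what makes these genes a family and how different the copies have become at the level at which reads are assigned. Sequences are from the GENCODE annotation of mm9, 5′ to 3′ on the coding strand, and capitals mark the 7 signature codons. In each case the window lay within a single coding exon. The first 3 windows are from the genes with a single domain and the next pair from *Lgals9*.
Lgals1 (chr15:78760106-78760189, + strand, exon 3 of 4): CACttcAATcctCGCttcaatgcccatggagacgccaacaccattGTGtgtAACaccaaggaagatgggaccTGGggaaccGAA
Lgals2 (chr15:78681739-78681810, - strand, exon 3 of 4): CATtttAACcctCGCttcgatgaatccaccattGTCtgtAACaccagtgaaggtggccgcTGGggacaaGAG
Lgals3 (chr14:48004317-48004397, + strand, exon 5 of 6): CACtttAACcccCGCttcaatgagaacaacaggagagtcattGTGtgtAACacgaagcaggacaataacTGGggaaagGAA
Lgals9, first domain (chr11:78786568-78786642, - strand, exon 3 of 11): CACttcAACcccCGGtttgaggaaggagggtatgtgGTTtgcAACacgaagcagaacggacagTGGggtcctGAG
Lgals9, second domain (chr11:78779245-78779316, - strand, exon 10 of 11): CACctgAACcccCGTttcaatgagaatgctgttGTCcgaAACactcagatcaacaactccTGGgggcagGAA
Lgals4, first domain (chr7:29620898-29620972, + strand, exon 3 of 10): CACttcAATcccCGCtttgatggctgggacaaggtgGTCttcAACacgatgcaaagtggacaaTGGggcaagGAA
Lgals4, second domain (chr7:29626210-29626278, + strand, exon 9 of 10): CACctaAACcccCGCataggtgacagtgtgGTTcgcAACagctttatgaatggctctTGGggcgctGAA
Lgals8, first domain (chr13:12547080-12547154, - strand, exon 4 of 10): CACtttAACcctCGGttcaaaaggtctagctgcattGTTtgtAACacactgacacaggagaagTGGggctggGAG
Lgals8, second domain (chr13:12539462-12539533, - strand, exon 9 of 10): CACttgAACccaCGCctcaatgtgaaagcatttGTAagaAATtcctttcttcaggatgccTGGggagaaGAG
The capitals stand in the same order in all 9 windows, while the stretch between the Arg and the Val codon is not of one length. The coding sequence of *Lgals3bp*, the glycoprotein that galectins bind, is 577 codons long and held no such window. Neither did those of *Lgals12*, *Grifin* and the galectin-related gene *Lgalsl*. The missing window alone therefore does not tell *Lgals3bp* from genes of the galectin family. Among the 6 galectins with printed windows the coding sequences ranged from 130 codons in *Lgals2* to 353 in *Lgals9*.

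The whole transcripts of these genes differ enough for reads to be told apart in nearly all cases. Searched against mm9, none of the 7 annotated members had a second place in the genome that matched 25% or more of the transcript at an identity of 90% or more. *Lgals1* and *Lgals8* each had a long but diverged match outside any annotated gene, 548 bases at 81.2% identity on chromosome 12 and 1102 bases at 85.8% identity on chromosome 17. The longest match of *Lgals4* elsewhere was 130 bases in *Lgals9*, at 73.1% identity. *Lgals6*, a mouse gene closely related to *Lgals4*, has no model in the mm9 annotation used here, although the count tables have a row for it.

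The libraries held 18216537 to 20397278 counts each, and 12501 genes had counts high enough to be tested. They were normalised by the TMM method, which sets libraries to a common scale by the genes that differ least, and are given per library or as mean ± SD (n = 3 libraries per group). A gene was called when edgeR's quasi-likelihood test gave a Benjamini-Hochberg adjusted p under 0.01, the absolute log2 fold change was at least 0.5 and the mean normalised count was at least 50. *Tcf7l1* itself had 476, 474 and 364 normalised counts in wild type libraries 1 to 3 and 41.4, 33.0 and 73.0 in mutant libraries 1 to 3, so that the labels were borne out in all 6. The wild type libraries carried Y-linked transcripts (*Ddx3y*, 1746 to 2114 normalised counts) and no *Xist*, whereas the mutant libraries carried *Xist* (237 to 452) and no *Ddx3y*. Genotype and sex of the embryos therefore cannot be told apart in any result given here.

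The galectins covered a wide range of levels in this epithelium. Levels were compared between genes per length, as reads per kilobase of exon and per unit of library size (RPKM). *Lgals2* was far above the rest, with 883 ± 68.6 RPKM in the wild type and 967 ± 62.2 in the mutant, and it ranked 21 among the 11773 tested genes with a known length in the wild type. It was followed by *Lgals3bp* (97.9 ± 8.84 RPKM in the wild type, 99.7 ± 2.10 in the mutant) and *Lgals9* (69.0 ± 6.81 and 91.2 ± 1.58). *Lgals8* had a moderate level of 12.7 ± 0.739 RPKM in the wild type and 14.5 ± 1.73 in the mutant. *Lgals1*, *Lgals4* and *Lgals3* were low in the wild type, with 3.20 ± 1.42, 0.854 ± 0.0820 and 0.708 ± 0.231 RPKM. *Lgals6* had no known length, and its raw counts did not exceed 9 in any library. The level of *Lgals4* is uncertain, because it shares sequence with *Lgals6* and how reads on both gene models were counted is not stated.

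Neighbours in this order were separated over all libraries of the wild type except for the lowest pair. *Lgals3bp* (88.3 to 106 RPKM in the wild type) and *Lgals9* (62.4 to 76.0) did not overlap, and in the mutant they lay closer together, at 97.8 to 102 and 89.5 to 92.6 RPKM. *Lgals4* (0.786 to 0.945 RPKM) and *Lgals3* (0.491 to 0.951) could not be ordered in the wild type. In the mutant *Lgals3* (2.34 to 4.52 RPKM) lay above *Lgals4* (0.943 to 1.23) in every library and within reach of *Lgals1* (3.61 to 4.84). As counted, the order was thus the same in both genotypes except for the place of *Lgals3*. The place of *Lgals4* in it is uncertain, as is its level.

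**Figure D1:**
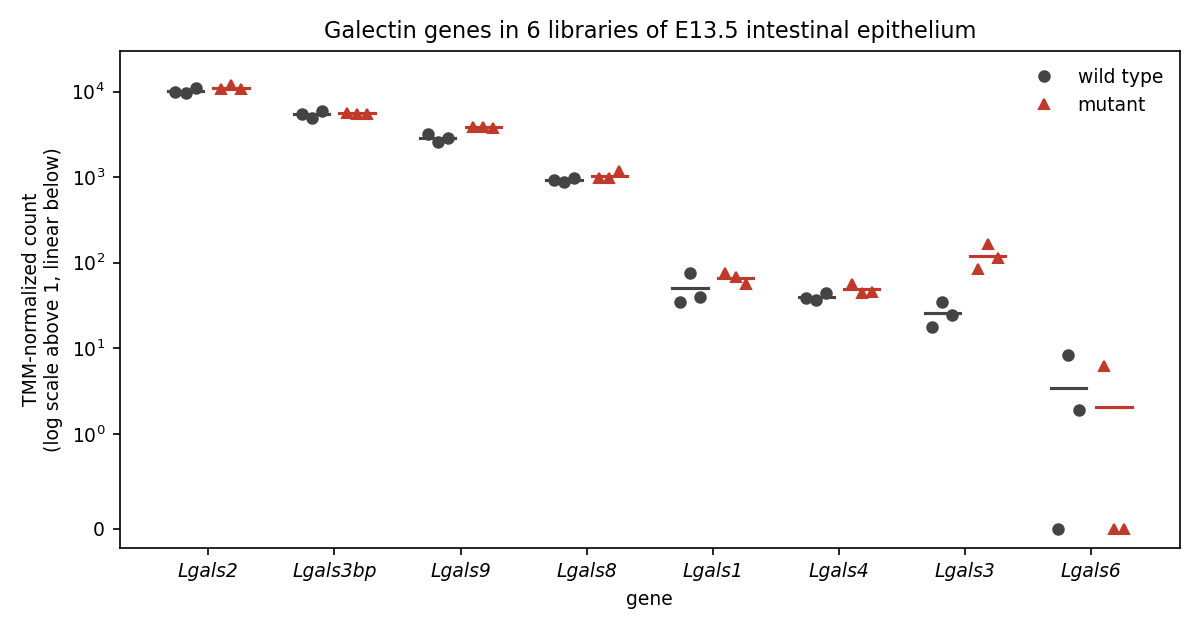
TMM-normalised counts of the 8 members, *Lgals3bp* included, in each of the 3 wild type (circles) and 3 mutant (triangles) libraries. The axis is logarithmic above 1 and linear below, and a line marks each group's mean. *Lgals3* is the gene whose groups stand farthest apart (17.8 to 34.5 against 84.9 to 164), and *Lgals2* is the highest gene in all 6 libraries.

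Between genotypes, 1 of the 7 tested members (*Lgals3bp* among them) was called higher in the mutant, namely *Lgals3*, and 0 were called lower. Over all tested genes 2.78% were called higher, 5.83% lower and 8.62% in either direction. The fitted fold was above 0 for 7 of 7 tested members, with a median log2 fold change of 0.30 beside -0.04 over all tested genes, but for 5 of them the 95% interval of the fold included 0. For *Lgals3bp* and *Lgals2* the sign turned with the processing (*Lgals3bp* -0.08 when libraries were scaled by size alone and -0.04 without wild type 2, *Lgals2* -0.05 with a gene length correction). Groups did not overlap for 2 members, *Lgals3* and *Lgals9*, both higher in the mutant, where 43.0% of all tested genes had groups that did not overlap (20.8% with the mutant higher, 22.2% with it lower). In bulk libraries such as these, a change in the number of cells that make a transcript and a change in the amount per cell cannot be told apart.

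*Lgals3*, the chimera galectin, lies on chromosome 14 (mm9, chr14:47987426-48005835, + strand). The wild type libraries 1 to 3 had 17.8, 34.5 and 24.7 normalised counts of it, and the mutant libraries 1 to 3 had 84.9, 164 and 113. Every mutant library was above every wild type library, and the lowest mutant value was more than the highest wild type value by a margin wider than the whole wild type range. The mean rose from 25.7 ± 8.38 to 121 ± 40.1, a log2 fold change of 2.23 (SE 0.37, 95% interval 1.43 to 3.02, edgeR adjusted p = 0.000515). These values rest on 19, 37 and 26 raw reads in the wild type and 82, 154 and 102 in the mutant. Even after the rise, *Lgals3* stood at 3.32 ± 1.11 RPKM in the mutant, far under *Lgals2*. The call held in 13 of 13 alternative fits, with log2 fold changes between 1.94 (without mutant 2) and 2.497 (without wild type 2) and adjusted p between 1.58e-06 and 0.00632. With a mean RPKM of at least 50, the study's criterion, in place of the count minimum, *Lgals3* was not called, since its level is lower than that. The paper nevertheless lists *Lgals3* among the enterocyte genes upregulated in the mutant. The paper derived its RPKM from DESeq2 values, and whether they share a scale with those given here was not tested.

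The tested genes whose profile over the 6 libraries was most like that of *Lgals3* were *Ccdc40*, *Itih5* and *Edem1*. Likeness was measured as the root mean square difference of the centred log2 CPM values (counts scaled by library size), which was 0.297 for *Ccdc40*, 0.324 for *Itih5* and 0.329 for *Edem1*. *Ccdc40*, which encodes a protein of motile cilia, had 70.8 ± 9.37 normalised counts in the wild type and 233 ± 59.7 in the mutant. *Edem1*, which encodes a factor that sends misfolded glycoproteins to degradation, had 421 ± 44.6 and 1447 ± 100. *Itih5*, for an inter-alpha-trypsin inhibitor heavy chain, had 3.13 ± 2.34 and 29.7 ± 13.6. The log2 fold changes of *Ccdc40*, *Itih5* and *Edem1* were 1.72, 3.19 and 1.78. With 3 libraries per group, this measure mainly picks genes with a similar difference between genotypes. The log2 CPM values used a prior count of 2, which shrinks the difference of a gene as low as *Itih5*.

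*Lgals3* is also a well-known product of macrophages, and markers of such cells were therefore read in the same libraries. Of 14 macrophage and leukocyte markers in the tables, 3 were tested and 0 were called, where 8.62% of all tested genes were called. At that share, 0 of 3 carries little information. Of the 3 tested, 2 had a fold above 0 and 1 below, with a median log2 fold change of 0.36. The summed normalised count of the 14 markers ran from 88.2 to 139 in the wild type and from 190 to 215 in the mutant, so this sum, like *Lgals3*, was higher in every mutant library. *Ptprc*, which encodes the common leukocyte antigen CD45, and *Emr1*, which encodes the macrophage antigen F4/80, were at 0 in all 6 libraries, and *Csf1r*, the receptor that macrophages need, had 0 to 6.53 normalised counts. Most of the difference in the sum came from *Lyz1*, a lysozyme gene that Paneth cells of the adult gut also express. It had 2.81 to 29.5 in the wild type and 51.8 to 132 in the mutant (edgeR adjusted p = 0.0152). The part of these transcripts in the *Lgals3* result was not tested.

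*Lgals9*, a tandem-repeat galectin known as an immune regulator, is on chromosome 11 (chr11:78776476-78798448, - strand). Its normalised counts reached 3172, 2605 and 2857 in the wild type libraries and 3819, 3866 and 3736 in the mutant ones. The groups did not overlap, and the mutant libraries were much closer to one another than the wild type libraries were. The mean was 2878 ± 284 in the wild type and 3807 ± 65.8 in the mutant, a log2 fold change of 0.40 (SE 0.08, 95% interval 0.23 to 0.58, edgeR adjusted p = 0.00193). *Lgals9* thus passed the test but stayed under the minimum fold of the call. An adjusted p under 0.01 at any fold was reached by 2 of the 7 tested members, *Lgals3* and *Lgals9*, where 14.9% of all tested genes reached it. The adjusted p of *Lgals9* exceeded 0.01 with libraries scaled by size alone (0.0109, log2 fold change 0.30), without wild type 2 (0.0125, 0.34), without mutant 1 (0.0122, 0.40) and without mutant 2 (0.0110, 0.39).

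*Lgals8*, which marks ruptured endosomes for autophagy, lies on chromosome 13 (chr13:12531682-12557211, - strand). It had 914, 867 and 973 normalised counts in the wild type and 973, 967 and 1186 in the mutant, with mutant 3 standing above the other 5 libraries. The mean was 918 ± 53.2 in the wild type and 1042 ± 125 in the mutant, and the log2 fold change of 0.18 (SE 0.11, 95% interval -0.06 to 0.42) did not pass the test (edgeR adjusted p = 0.243). It was 0.08 without mutant 3 and with library size as the only scaling, and 0.38 with the gene length correction (adjusted p = 0.0206). *Lgals4*, a galectin of the brush border and of apical transport carriers, lies on chromosome 7 (chr7:29618813-29626722, + strand). It had 38.4, 36.4 and 43.7 normalised counts in the wild type and 56.9, 43.7 and 45.4 in the mutant. The highest wild type value, in library 3, was just above the lowest mutant value, in library 2. The log2 fold change was 0.30 with an SE of 0.40 and a 95% interval of -0.54 to 1.14 (edgeR adjusted p = 0.611). Without mutant 1 it was 0.17. With counts this low, a fall and a rise past the minimum fold both lay inside the interval.

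*Lgals6* had 0, 9 and 2 raw reads in the wild type libraries and 6, 0 and 0 in the mutant ones, too few to be tested. Because *Lgals4* and *Lgals6* share sequence, the reads of both were also added. The sum was 41, 48 and 48 reads in the wild type and 61, 41 and 41 in the mutant, and its log2 fold change was 0.24 (SE 0.39, edgeR adjusted p = 0.682). Reads counted as *Lgals6* made up 0%, 18.8% and 4.17% of this sum in the wild type, and 9.84%, 0% and 0% in the mutant. The exact 95% intervals of these shares, which cover counting error only, ran from 8.95% to 32.6% in wild type 2 and from 3.70% to 20.2% in mutant 1, while a library with 0 of 41 reads allows a share of up to 8.60%. The mean shares of 7.64 ± 9.85% and 3.28 ± 5.68% did not differ beyond the spread between libraries (exact two-sided permutation p = 0.7, where the smallest p this design allows is 0.1). Without wild type 2 the difference changed sign, from -4.36 to 1.20 percentage points. The mm9 sequence held a single locus like *Lgals4*, and how the counting treated reads that fall on both gene models is not stated in the sources used here. With a single such locus, the shares and their test cannot measure *Lgals6* transcripts against those of *Lgals4*. They show only how counted reads were divided between the gene names. The levels of *Lgals4* and *Lgals6* are therefore uncertain, and whether reads were lost between them was not tested.

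The prototype galectin *Lgals2* lies on chromosome 15 (chr15:78681292-78685959, - strand). It had 9787, 9658 and 11088 normalised counts in the wild type and 10725, 11973 and 10737 in the mutant. Wild type 3 was above mutant 1 and mutant 3, so the groups overlapped. The mean was 10178 ± 791 in the wild type and 11145 ± 717 in the mutant, with a log2 fold change of 0.13 (SE 0.07, 95% interval -0.03 to 0.29, edgeR adjusted p = 0.201). Without wild type 3 the log2 fold change was 0.21 (adjusted p = 0.0110) and without mutant 2 it was 0.08. The interval is narrow, and for this highly expressed gene it leaves out changes as large as the minimum fold of the call in both directions. *Cdc42ep1*, on the opposite strand, overlaps 41 exon bases of *Lgals2* (6.95%), and whether reads were counted by strand is not stated in the sources used here.

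*Lgals1*, the other prototype galectin and an abundant product of mesenchyme, lies on the same chromosome (chr15:78757155-78760895, + strand). It had 34.7, 75.5 and 39.9 normalised counts in the wild type and 75.6, 67.1 and 56.4 in the mutant, and wild type 2 lay among the mutant libraries. The means of 50.04 ± 22.2 and 66.4 ± 9.61 gave a log2 fold change of 0.41 (SE 0.38, 95% interval -0.41 to 1.22, edgeR adjusted p = 0.461). The log2 fold change was 0.83 without wild type 2 (edgeR adjusted p = 0.181) and 0.20 without wild type 1 (0.780). The summed normalised count of 14 mesenchyme markers ran from 1374 to 1700 in the wild type and from 1121 to 1757 in the mutant, ranges that overlapped although single markers went opposite ways. Of these markers 6 were tested and 0 called (8.62% of all tested genes were called), with 2 folds above 0 and 4 below. Their median log2 fold change was -0.715, but 1.29 over the 3 markers with a mean count of at least 50. *Vim*, the intermediate filament vimentin, had 1179 to 1389 in the wild type and 864 to 962 in the mutant (log2 fold change -0.46, edgeR adjusted p = 0.00494), under the fold minimum. *Acta2* and *Tagln*, genes of smooth muscle, were highest in mutant 3 (489 and 264), against 69.4 to 105 and 41.8 to 82.0 in the wild type. The part of these transcripts in the *Lgals1* values was not tested.

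*Lgals3bp*, the galectin-binding glycoprotein, lies on chromosome 11 (chr11:118254065-118263406, - strand). Its normalised counts were 5536, 4910 and 5880 in the wild type and 5671, 5527 and 5440 in the mutant, and all 3 mutant libraries fell within the wild type range. The mean was 5442 ± 492 in the wild type and 5546 ± 117 in the mutant, with a log2 fold change of 0.03 (SE 0.08, 95% interval -0.13 to 0.19, edgeR adjusted p = 0.819). The interval thus lay well inside the minimum fold of the call on both sides.

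**Figure D2:**
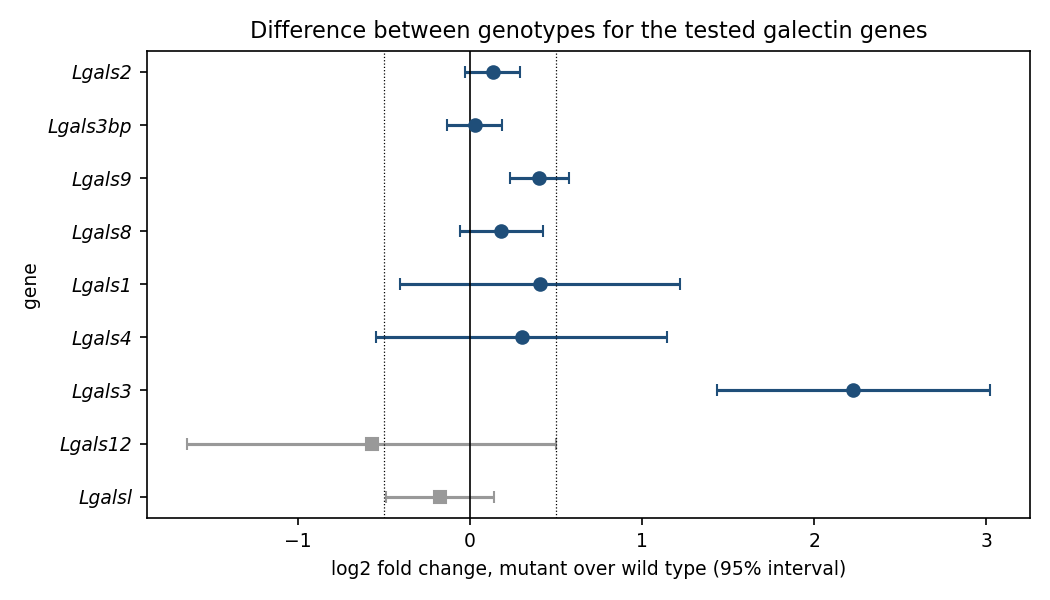
Log2 fold change of mutant over wild type with 95% intervals for the 7 tested members, *Lgals3bp* included (circles), and for *Lgals12* and *Lgalsl* (squares). The dotted lines mark the minimum fold of the call at 0.5 on either side, and the interval of *Lgals3* (1.43 to 3.02) lies wholly beyond it, while those of *Lgals2*, *Lgals3bp* and *Lgals8* lie wholly between the lines.

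Other genes of the family were also read. *Lgals12*, a galectin best known from adipocytes, had 30.9, 26.1 and 35.2 normalised counts in the wild type and 18.6, 23.4 and 19.9 in the mutant. Its groups did not overlap, but at this low level the log2 fold change of -0.57 (SE 0.51) did not pass the test (edgeR adjusted p = 0.430). *Lgalsl*, which encodes a galectin-related protein, had 503 ± 59.9 normalised counts in the wild type and 447 ± 51.4 in the mutant (log2 fold change -0.17, SE 0.15, edgeR adjusted p = 0.413), and its sign turned to 0.04 with the gene length correction. *Lgals7*, a galectin of stratified epithelia, and *Grifin*, of the lens, had raw counts of at most 2 and 4 in any library and were not tested.

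**Figure D3:**
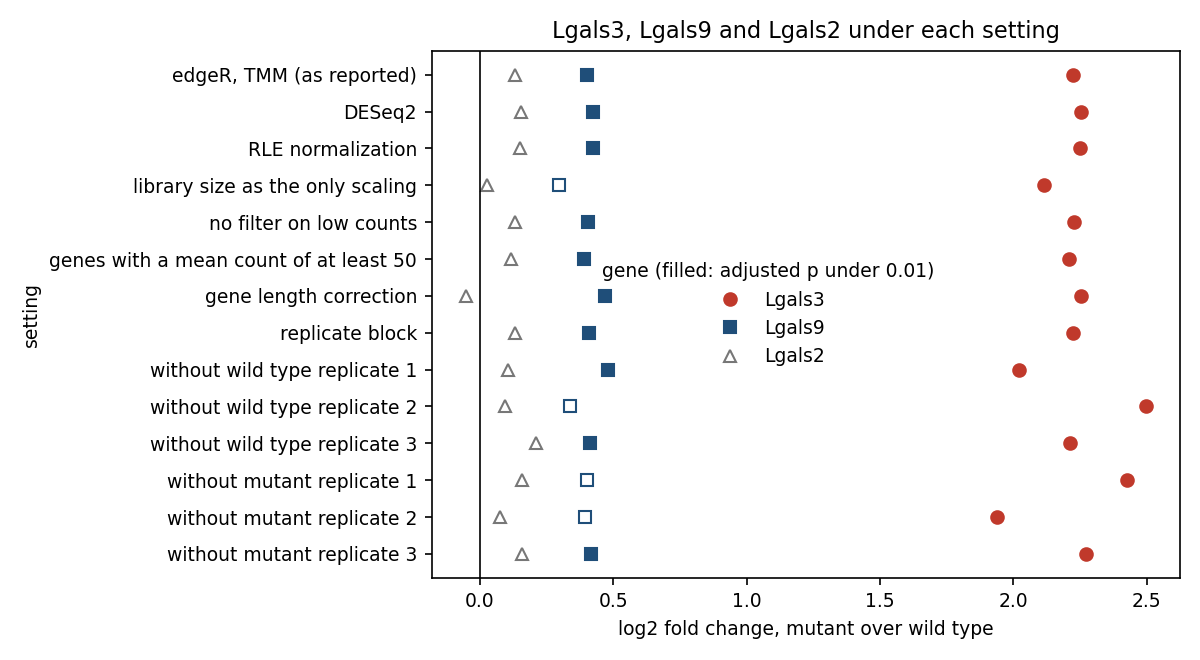
Log2 fold change of *Lgals3*, *Lgals9* and *Lgals2* (mutant over wild type) in the reported fit and in the 13 alternative fits, with filled symbols where the adjusted p was under 0.01. *Lgals3* lies between 1.94 and 2.497 and is filled throughout, *Lgals9* has an unfilled symbol in 4 alternative fits, and *Lgals2* is unfilled throughout and reaches -0.05 with the gene length correction.

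The sugars that galectins bind are built by other genes, and these were read in 3 groups. The first group holds enzymes that trim and branch N-glycans, whose branches carry the LacNAc units. Of 13 tested genes 0 were called higher and 2 lower, with a median log2 fold change of -0.32. The shares to set beside all 3 groups are those over all tested genes, 2.78% called higher and 5.83% lower. *Fut8*, the enzyme that adds the core fucose, fell from 196, 172 and 129 normalised counts in the wild type to 45.6, 13.8 and 57.5 in the mutant (log2 fold change -2.09, SE 0.38, edgeR adjusted p = 0.00105). *Mgat1*, which starts the branched complex type of N-glycan, fell from 857 ± 160 to 560 ± 78.5 (log2 fold change -0.61, SE 0.15, edgeR adjusted p = 0.00668), although this call was lost in 4 of the 6 fits that left out a library, with the gene length correction and with the replicate number as a block.

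The second group holds enzymes that extend LacNAc chains or make the branches of O-glycans, and of its 16 tested genes 0 were called higher and 2 lower (median log2 fold change -0.30). *Gcnt3*, which forms branched cores of mucin O-glycans, fell from 182, 260 and 208 normalised counts in the wild type to 20.7, 46.9 and 18.8 in the mutant. The groups were far apart, with a log2 fold change of -2.91 (SE 0.33, edgeR adjusted p = 1.4e-05). *B4galt1*, which adds the galactose of the LacNAc unit, fell from 183 ± 51.2 to 82.8 ± 29.0 (log2 fold change -1.14, SE 0.29, edgeR adjusted p = 0.00831), a call lost in 4 of 6 fits without a library and with the gene length correction.

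The third group holds sialyltransferases and other enzymes that cap or fucosylate these chains, and of 11 tested genes 2 were called higher and 3 lower (median log2 fold change -0.82). *St6gal1*, which adds the α2,6-linked sialic acid that hinders most galectins, fell from 145, 77.4 and 88.4 normalised counts in the wild type to 18.6, 8.52 and 15.5 in the mutant. This is a log2 fold change of -2.86 (SE 0.43, edgeR adjusted p = 0.000191), and over the alternative fits it lay between -3.10 and -2.53 with adjusted p up to 0.00367. Without wild type 1 the gene passed the test and the fold minimum, but its mean normalised count fell under 50. *St3gal4*, which adds α2,3-linked sialic acid, a cap that many galectins tolerate, moved the other way, from 163, 186 and 225 normalised counts to 456, 349 and 418 (log2 fold change 1.09, SE 0.18, edgeR adjusted p = 0.000472). *St3gal6* had a log2 fold change of 0.74, and the fucosyltransferase genes *Fut2* and *Fut4* had -1.23 and -1.20. Of these 3 calls, that of *St3gal6* was lost in 5, that of *Fut2* in 6 and that of *Fut4* in 3 of the 6 fits without a library, the first also with library size as the only scaling and the second with the gene length correction and the replicate block. With the gene length correction the medians of the 3 groups were -0.21, -0.09 and -0.69, where that of all tested genes was 0.09.

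**Figure D4:**
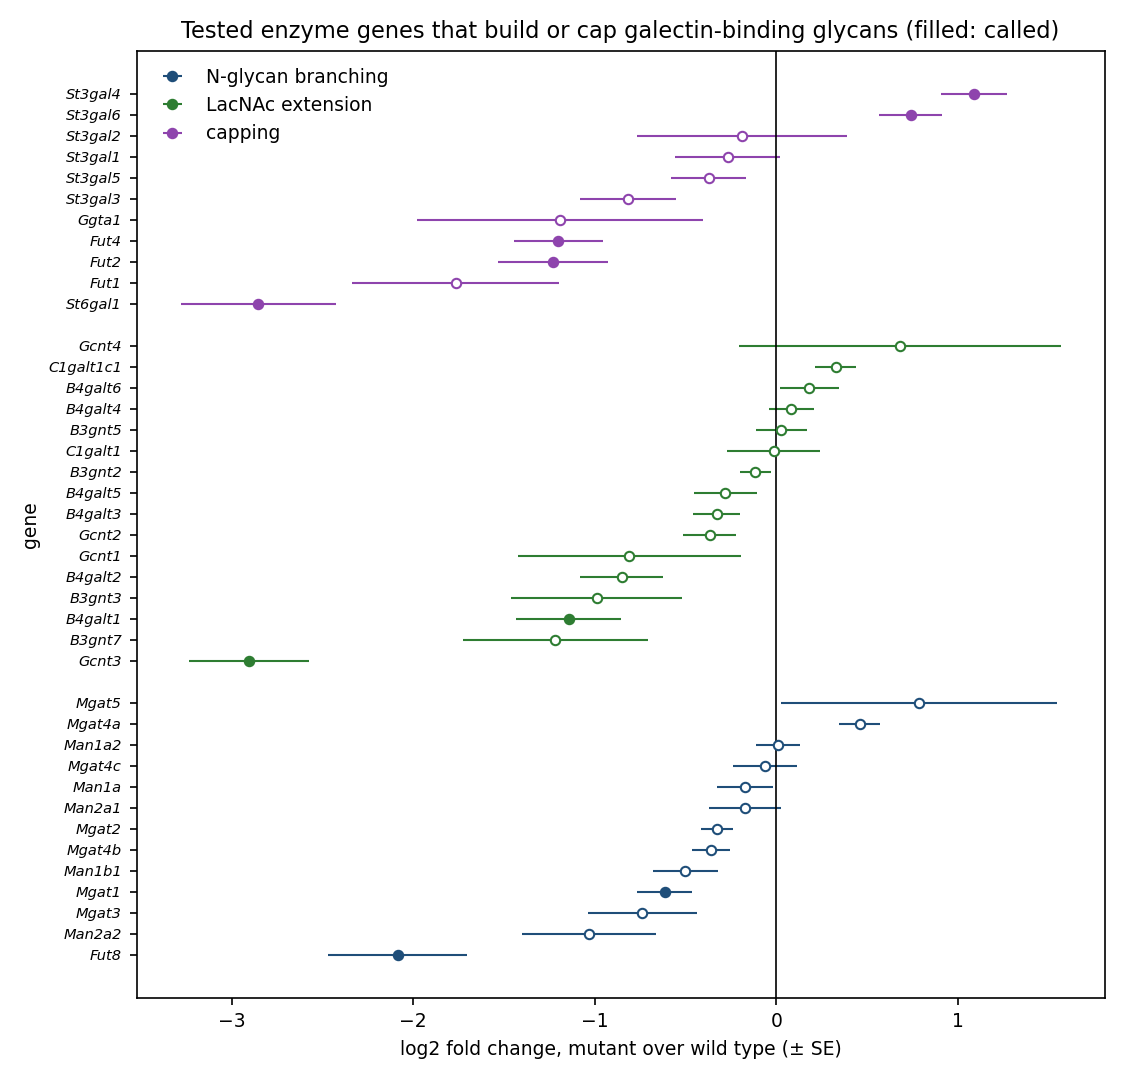
Log2 fold change (mutant over wild type, ± SE) of the tested enzyme genes that branch N-glycans, extend LacNAc chains or cap them, with filled symbols for called genes. The calls range from -2.91 for *Gcnt3* to 1.09 for *St3gal4*, and *St3gal4* and *St3gal6* are the filled symbols to the right of 0.

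Glycoproteins known to carry galectin ligands moved in both directions. Of 23 tested genes 4 were called higher and 4 lower, where 2.78% and 5.83% of all tested genes were. The median log2 fold change was -0.07. The sign of this median turned with the gene length correction (0.15), without mutant 1 (0.10), and without wild type 1 (0.02) or wild type 2 (0.00). Among those that rose, *Ceacam1*, an adhesion molecule, had a log2 fold change of 0.83 (SE 0.19), and *Muc13*, a membrane mucin, had 0.79 (SE 0.08). *Tfrc*, the transferrin receptor, and *Slc3a2*, the heavy chain of amino acid transporters, had 0.68 (SE 0.08) and 0.64 (SE 0.07). Among those that fell, *Muc1*, a membrane mucin to which *Lgals3* protein binds, went from 344, 318 and 348 normalised counts in the wild type to 25.9, 33.0 and 70.8 in the mutant (log2 fold change -2.96, SE 0.29, edgeR adjusted p = 3e-06). *Itga5*, an integrin chain, had -1.43 (SE 0.25), and *Fn1*, its ligand fibronectin, had -0.63 (SE 0.12). *Cdh1*, E-cadherin, had -0.57 (SE 0.10). The calls of *Ceacam1*, *Fn1* and *Cdh1* were lost in 5, 2 and 2 of the 6 fits without a library, and those of the other 5 genes in none. *Ceacam1* also lost its call with library size as the only scaling, and *Fn1* and *Cdh1* with the gene length correction. *Havcr2*, the gene of the lymphocyte receptor TIM-3 that binds *Lgals9* protein, was at 0 in all 6 libraries.

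Genes linked to the response to damaged endosomes and lysosomes, where some galectins act, formed a further list. Being on it does not mean that a gene acts with galectins. Of the 18 tested genes of this list 0 were called higher and 1 lower, where 2.78% and 5.83% of all tested genes were. The median log2 fold change was 0.00, with values from -0.10 (library size alone) to 0.13 (gene length correction) over the alternatives. The called gene, *Calcoco1*, an autophagy receptor of the endoplasmic reticulum and Golgi apparatus, fell from 453, 447 and 374 normalised counts in the wild type to 187, 182 and 168 in the mutant (log2 fold change -1.24, SE 0.17, edgeR adjusted p = 6.6e-05). The related gene *Calcoco2*, also on the list, had raw counts of at most 6 in any library and was not tested. *Lgals3bp* and *Lgals9* are known to respond to interferon, and interferon response genes were read for that reason. Of 22 tested genes 1 was called higher and 2 lower, beside the same shares over all tested genes. The median log2 fold change was -0.05. This median had no stable sign, as it ran from -0.23 (without wild type 1) to 0.21 (without wild type 2) over the alternative fits. *Ddx58*, which encodes the RNA sensor RIG-I, fell from 216 ± 5.33 to 88.8 ± 32.2, *Ifit2* from 1222 ± 45.5 to 848 ± 28.6, and *Ifi35* rose from 336 ± 48.5 to 521 ± 86.8 (log2 fold changes -1.28, -0.53 and 0.64). These calls were lost without mutant 1 for *Ddx58*, without wild type 3 and with the gene length correction for *Ifit2*, and in 4 of 6 fits without a library, with library size alone and with the replicate block for *Ifi35*.

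Markers of the absorptive enterocyte, the cell in which several galectins are made in the adult gut, were compared beside them, with the galectins left out of the list. Of 21 tested markers 7 were called higher and 1 lower, where 2.78% and 5.83% of all tested genes were. The median log2 fold change was 0.04. This median turned to -0.07 with libraries scaled by size alone and to -0.02 without mutant 1, and rose to 0.16 without wild type 1 and 0.15 without wild type 2. *Apoa4*, *Mttp*, *Fabp2* and *Fabp1*, genes of lipid handling, had log2 fold changes of 0.93 (SE 0.18), 0.85 (SE 0.08), 0.84 (SE 0.09) and 0.81 (SE 0.09). *Krt20*, a keratin of differentiated epithelium, fell from 1893 ± 86.3 to 961 ± 115 normalised counts (log2 fold change -0.98, SE 0.10). The fold of *Lgals3* exceeded that of each of these 5 markers. Of 12 markers of the sorted epithelium, all tested, 0 were called higher and 4 lower (*Cdx2*, *Cldn6*, *Cdh1* and *Krt18*, with log2 fold changes of -0.68, -0.58, -0.57 and -0.54), and their median was -0.38. Their summed normalised count ran from 191100 to 205000 in the wild type and from 188400 to 192400 in the mutant, while *Epcam* itself, by which the cells were sorted, had 47961 to 57037 and 60360 to 64100. That of 15 gastric epithelium genes was 1704 to 1770 in the wild type and 391 to 523 in the mutant. That of 9 erythroid genes lay at 22.8 to 34.5 in the wild type and 5.33 to 10.3 in the mutant, and that of 7 endothelial genes at 0 to 12.4 and 0 to 21.7. The part of these shifts in the galectin values was not tested.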

How the data were processed

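Low-input RNA-sequencing of sorted E13.5 epithelium was used (3 wild type, 3 mutant libraries, 500 cells and 15 PCR cycles each). The authors mapped reads to mm9 with STAR 2.5.2b, counted uniquely mapping reads on UCSC gene models with featureCounts 1.5.1 and deposited raw counts per gene. Strand setting is not given in the sources used here. Library totals were 18216537 to 20397278.

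The test was that of edgeR 4.0.16 with R 4.3.3 (TMM, filterByExpr, quasi-likelihood, Benjamini-Hochberg over 12501 genes, common dispersion 0.0209). Thresholds follow the study, with a mean normalised count of 50 for its RPKM of 50. In place of the study's DESeq2, which is an alternative here (1.42.0), edgeR was the main test. The edgeR p-values weigh the difference between genotypes against the spread between these libraries, estimated with information from all tested genes. Whether that spread stands for the spread between embryos is open, as litter and pooling are not stated. RPKM used exon lengths of the GENCODE mm9 annotation, and transcripts were searched with BLAST 2.17.0. The members and gene lists were chosen with earlier results of these data known. The text names all members, other family genes, at most the 4 largest called changes per direction of each list, and the 3 genes most like a called member. Markers and other genes outside that rule, such as *Havcr2*, were named after their values were seen. On simulated counts of 12501 genes, edgeR recovered 90.1% of genes changed by 1 and 100% of those changed by 2 on the log2 scale. These rates cover all changed genes together. None is given here for genes with as few reads as *Lgals1* or *Lgals4* (SE of the log2 fold change 0.38 and 0.40).

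Alternatives were DESeq2, RLE normalisation, library size alone, other count filters, other thresholds, a gene length correction (loess span 0.5), the replicate number as a block and fits without each library. Those for lists and for genes outside the 8 were added after seeing the data. PCR reads without molecular identifiers are not independent molecules, so counting intervals are minimal.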

Additional observations from a re-analysis of the deposited data

How the results depend on the processing

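Of 18 alternatives, 16 left 1 galectin called higher. Without a minimum fold 2 were called (*Lgals3* and *Lgals9*), and with a mean RPKM of at least 50 in place of the count minimum 0 were, since *Lgals3* is below that level. The number called lower was 0 in all 18. The log2 fold change of *Lgals3bp* became -0.076 with library size as the only scaling and ran from -0.042 (without wild type 2) to 0.101 (without wild type 3) as libraries were left out. That of *Lgals2* became -0.053 and that of *Lgalsl* 0.039 with the gene length correction. The difference in the share of reads counted as *Lgals6* ran from -8.18 to 1.20 percentage points as libraries were left out. In those fits the log2 fold change of the summed *Lgals4* and *Lgals6* reads ran from 0.05 to 0.34. The cause was not tested. *Lgals4* had no value when genes needed a mean count of 50. Same-numbered libraries did not deviate together (correlations 0.01, -0.04 and -0.02). This gave no sign of pairing by number but cannot show that there was none. With the replicate number as a block, 1 galectin was called higher and 0 lower, and the fold of *Lgals3* was 2.23 (edgeR adjusted p = 0.000297). Over all genes, 348 calls higher and 729 lower (32.3% higher) became 200 and 957 (17.3%) with library size alone, where the median fold moved by -0.11, and 727 and 419 (63.4%) with the gene length correction, where it moved by 0.13. Leaving out single libraries gave 260 to 516 calls higher and 405 to 867 lower. Low counts limit *Lgals1*, *Lgals3*, *Lgals4* and *Lgals6*, which had under 200 reads in every library. For *Lgals4* and *Lgals6*, how reads on both gene models were counted is also not stated.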
